A study of Caenorhabditis elegans with 2 samples.

Results

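Small nucleolar RNA (snoRNA) gene loci were examined in chromatin immunoprecipitation sequencing (ChIP-seq) peak lists of the T-box transcription factor TBX-2 in Caenorhabditis elegans. All 346 nuclear genes of biotype snoRNA, out of 46890 nuclear genes in the WBcel235 annotation, were taken, and each was extended by 200 bp on both sides. The rule for membership used the annotation alone, but it was set with earlier results of these data known. The windows covered 0.182% of the nuclear genome, and the genes were 54 to 344 bp long, with a median of 130 bp. The series holds 1 group of 2 biological replicates: whole hermaphrodite L3 larvae, taken 48 h after L1 synchronization, of strain OP159, which carries the unc-119(ed3) III allele and the transgene wgIs159. The transgene expresses TBX-2 fused to GFP, and DNA was recovered with an anti-GFP antibody. The labels do not name the promoter or the cells that express it. No other genotype, stage or control precipitate was analysed here, so nothing could be compared between conditions, and cells that carry the fusion protein cannot be told apart from those that do not in lysates of whole animals.

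snoRNAs are short nuclear RNAs that guide the chemical modification of ribosomal RNA and of spliceosomal RNAs. Box C/D snoRNAs direct 2′-O-methylation by fibrillarin, and box H/ACA snoRNAs direct pseudouridylation by dyskerin. Some are cut from the introns of a host gene and others are transcribed from promoters of their own. tRNA genes, the other small genes considered here, are read by RNA polymerase III through an A box and a B box within the gene, to which the factor TFIIIC binds. T-box factors such as TBX-2, which is required for the anterior pharyngeal muscle of the worm, bind DNA whose core letters are GGTGTG.

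The loci that carried the strongest peaks are shown first, because several share letters just upstream of the gene. The next 4 sequences are the 2 intronic and the 2 intergenic loci with the highest peak signal on chromosomes II, III, IV, V and X. Each runs from 100 bases before the gene to its last base, 5′ to 3′ on the gene strand, in ce11 (WBcel235) coordinates. Capitals mark 1 of 2 patterns. The A and B box pair is TGG, any 3 bases, A, any 2 or 3 bases and GG, followed by GTTCNANNC. The 18-base element is CGNAACNNG, any 5 bases and TGTC. Both patterns were chosen after the sequences of loci with peaks had been read, and M7.15 has neither.
ZK994.7, chrV:8500479-8500645, plus strand: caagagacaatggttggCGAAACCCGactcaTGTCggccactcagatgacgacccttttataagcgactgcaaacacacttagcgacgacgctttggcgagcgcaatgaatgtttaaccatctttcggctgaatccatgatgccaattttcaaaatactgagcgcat
C51F7.3, chrV:12303608-12303783, plus strand: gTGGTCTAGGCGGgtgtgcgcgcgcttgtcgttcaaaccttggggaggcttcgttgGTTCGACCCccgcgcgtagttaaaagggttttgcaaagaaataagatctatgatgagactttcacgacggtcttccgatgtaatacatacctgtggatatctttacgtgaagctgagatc
Y53F4B.47, chrII:15025814-15025993, minus strand: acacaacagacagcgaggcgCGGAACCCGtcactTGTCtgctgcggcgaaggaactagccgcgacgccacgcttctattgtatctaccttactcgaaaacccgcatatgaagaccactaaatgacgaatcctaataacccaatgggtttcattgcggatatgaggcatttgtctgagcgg
M7.15, chrIV:11083047-11083243, plus strand: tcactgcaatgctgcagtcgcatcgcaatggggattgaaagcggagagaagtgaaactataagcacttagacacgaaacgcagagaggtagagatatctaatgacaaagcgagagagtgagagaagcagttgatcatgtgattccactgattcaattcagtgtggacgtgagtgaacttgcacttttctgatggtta

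The next 4 sequences show the A and B box pair at the loci with the highest signal after these, over 110 bases that begin 100 bases before the gene. These loci were chosen for the match, so the marked letters recur between them by selection. Counted from the first base of the gene at 0, the B box begins at positions -27 to -9.
Y75B12B.12, chrV:15191084-15191193, minus strand: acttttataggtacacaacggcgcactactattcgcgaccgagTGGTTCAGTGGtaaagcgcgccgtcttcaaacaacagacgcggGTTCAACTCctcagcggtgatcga
Y43F8C.22, chrV:19643178-19643287, minus strand: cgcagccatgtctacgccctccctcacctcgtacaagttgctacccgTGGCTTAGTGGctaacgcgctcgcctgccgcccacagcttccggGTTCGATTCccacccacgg
F30H5.4, chrIII:502704-502813, plus strand: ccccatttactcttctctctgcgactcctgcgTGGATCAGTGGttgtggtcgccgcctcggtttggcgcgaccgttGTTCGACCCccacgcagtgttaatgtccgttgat
W03C9.9, chrII:11960798-11960907, plus strand: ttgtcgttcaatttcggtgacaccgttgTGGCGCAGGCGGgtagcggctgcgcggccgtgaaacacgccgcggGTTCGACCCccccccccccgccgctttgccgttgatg

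The last 4 sequences show the 18-base element over the same 110 bases. The element begins at position -61 or -60 in each.
T26A8.6, chrIV:8428730-8428839, minus strand: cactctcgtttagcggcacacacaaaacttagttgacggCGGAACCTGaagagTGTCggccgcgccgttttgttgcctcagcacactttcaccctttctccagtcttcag
C08D8.3, chrV:8349008-8349117, plus strand: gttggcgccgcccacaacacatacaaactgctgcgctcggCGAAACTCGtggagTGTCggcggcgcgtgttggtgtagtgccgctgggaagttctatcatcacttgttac
F01D5.12, chrII:14018432-14018541, minus strand: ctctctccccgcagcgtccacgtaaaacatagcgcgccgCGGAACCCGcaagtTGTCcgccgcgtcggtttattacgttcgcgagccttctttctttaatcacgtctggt
C16D9.11, chrV:8228960-8229069, minus strand: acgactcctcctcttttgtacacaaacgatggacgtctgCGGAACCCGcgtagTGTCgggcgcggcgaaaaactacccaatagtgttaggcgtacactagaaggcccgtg

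The values come from peak lists deposited by the authors for the pooled replicates and for each replicate. Each entry has a summit and a signal value, which is the peak caller's own score and is used here only to describe and rank entries within a list. The pooled list held 30000 entries with a median signal value of 26.0, replicate 1 held 28366 and replicate 2 held 30000. The thresholded list, which the authors cut by the reproducibility of ranks, held 1631 entries. They were the 1631 entries with the highest pooled signal values, the lowest being 90.97, and 1609 of them lay on nuclear chromosomes. Read depth is unknown, so intervals cover the number of loci only.

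A thresholded summit lay in the windows of 72 of the 346 snoRNA genes (20.8%, 95% exact Clopper-Pearson interval 16.7 to 25.5%), against 3.49% of all nuclear genes extended in the same way. The 72 loci held 75 distinct summits, which were 4.66% of the nuclear thresholded summits in 0.182% of the genome. Of the other small RNA genes, 153 of 612 tRNA genes (25%, 21.6 to 28.6%), 19 of 129 spliceosomal and related snRNA genes (14.7%, 9.11 to 22.0%) and 10 of 261 microRNA genes (3.83%, 1.85 to 6.93%) had one. Among protein-coding genes, which have a median length of 2027 bp, the share was 4.38%. With a window of 200 bp on either side of the gene start, equal for all genes, the snoRNA count stayed at 72 (20.8%), against 2.26% of all nuclear genes, 24.3% of tRNA genes, 13.2% of snRNA genes and 1.93% of protein-coding genes. No test was made between gene types, since the genes of a type are not replicates.

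**Figure D1:**
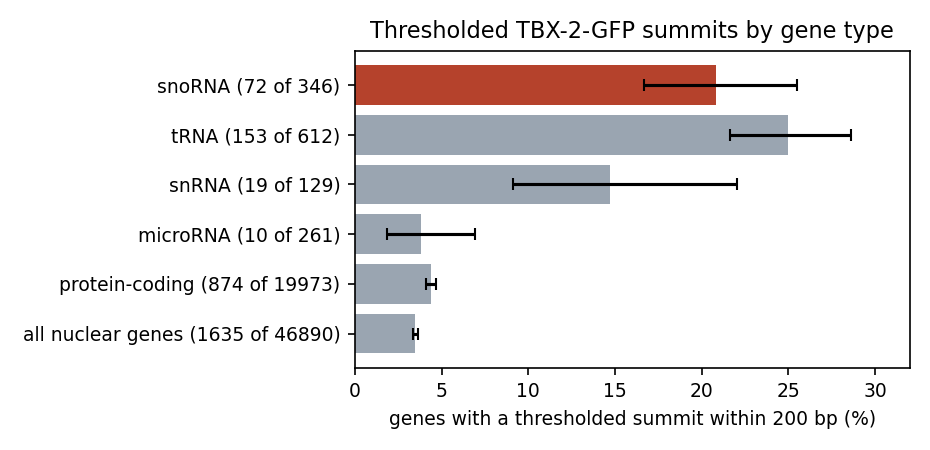
Percentage of genes of each type with a thresholded TBX-2-GFP summit inside the gene extended by 200 bp; bars are shares and whiskers 95% exact binomial intervals. The snoRNA bar stands at 20.8%, between tRNA genes at 25% and snRNA genes at 14.7%, and microRNA and protein-coding genes lie at 3.83% and 4.38%.

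An entry of any strength was present at 166 snoRNA loci (48.0%, 42.6 to 53.4%), against 28.4% of all nuclear genes, 71.4% of tRNA genes, 34.1% of snRNA genes, 27.6% of microRNA genes and 45.1% of protein-coding genes. Protein-coding windows are longer, with a median gene length of 2027 bp against 130 bp. Entries of any strength were not counted in windows of equal length. The best entry per snoRNA locus had a median signal value of 64.7 over these 166. The 72 loci with a thresholded summit ran from 94.0 to 558 with a median of 168, and the 94 with only weaker entries ran from 16.1 to 89.6 with a median of 29.0. The thresholded loci were spread over all chromosomes. Chromosomes V and II had the highest shares, with 16 of 55 (29.1%) and 20 of 71 (28.2%), and the X chromosome the lowest, with 2 of 33 (6.06%, 0.743 to 20.2%). The share of all nuclear genes on each chromosome was not taken. These shares therefore do not set snoRNA genes apart from other genes of a chromosome. The make-up of the chromosomes also differed: all 32 genes with the 18-base element and 26 of the 27 with the A and B box pair lie on autosomes.

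The thresholded loci are in that list by their pooled signal value, and the pool holds these same replicates. The replicate values are therefore a description and no independent check. Among the 72 loci, signal values in replicate 1 ran from 33.6 to 271 with a median of 95.4 over the 71 loci with an entry, and in replicate 2 from 32.9 to 288 with a median of 80.3. In each replicate 66 of the 72 loci were within the first 1631 entries, 61 were so in both and 1 in neither. Spearman's rho between the replicate values was 0.745 across the 71 loci, a description across loci that share the same libraries. C14C10.8 had no entry in replicate 1. Conversely, T06C12.16 was within the first 1631 in both replicates, with signal values of 101 and 111, but had no pooled summit in its window.

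**Figure D2:**
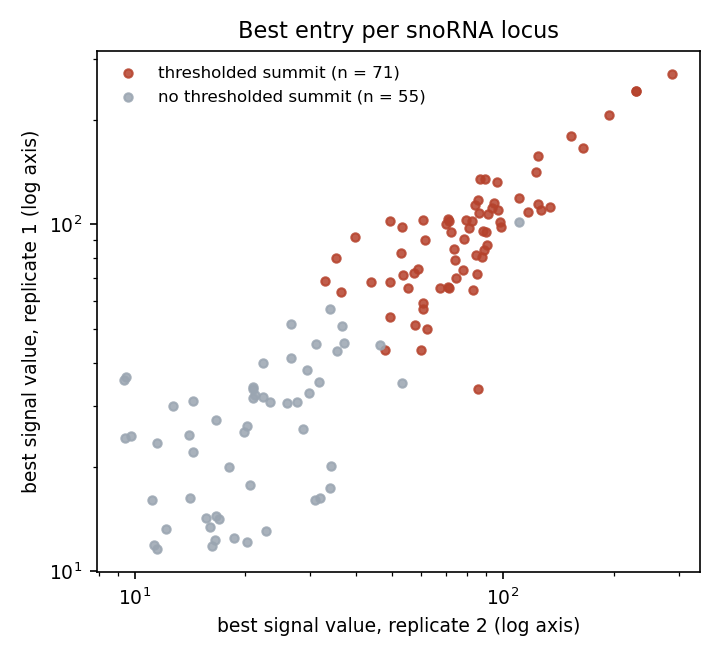
Best signal value per snoRNA locus in replicate 1 (vertical, log axis) against replicate 2 (horizontal, log axis), for loci with an entry in both. Loci with a thresholded summit fill the upper right, up to 271 in replicate 1 and 288 in replicate 2, and the others lie mostly lower in both.

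The strongest locus was ZK994.7, on chromosome V in an intron of pxn-1, which encodes a peroxidasin homolog. It reached 558 in the pool, 271 in replicate 1 and 288 in replicate 2, with its summit at -20 relative to the gene start. It was 60th of the 30000 pooled entries. The neighbouring genes C51F7.3, in an intron of the FERM-domain gene frm-7, and C51F7.4, which overlaps a coding exon, shared 1 peak, with signal values of 466 (pool), 243 (replicate 1) and 230 (replicate 2). The summit lay at -52 from C51F7.3 and at 57 from C51F7.4. Y53F4B.47, an intergenic gene on chromosome II, had 403 (pool), 206 (replicate 1) and 194 (replicate 2). Its summit at -74 also lay in the promoter window of cmtr-1. ZK994.7, C51F7.4 and C51F7.3 were the highest snoRNA loci in the pool and in each replicate. W06H8.17 came next in replicate 1, with 223, but had no summit in its window in replicate 2 or in the pool.

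Next in order came F59C6.15, with 332 in the pool, 180 in replicate 1 and 153 in replicate 2. It is intergenic, its summit lay in the promoter window of F59C6.18, and 79.6% of the 36-base words in its window occur once in the genome. F39B2.14, with 329 in the pool, 166 in replicate 1 and 165 in replicate 2, overlaps a coding exon, and its summit lay in the promoter window of rps-26, a ribosomal protein gene, and of tmem-107. M7.15 had a pooled signal value of 273, 158 in replicate 1 and 125 in replicate 2, with the summit at -98 in the promoter window shared by klc-1, a kinesin light chain gene, and let-70, a ubiquitin-conjugating enzyme gene. T26A8.6, with the 18-base element, followed with 262 in the pool, 142 in replicate 1 and 123 in replicate 2. At Y53F4B.47, F59C6.15, F39B2.14 and M7.15 the snoRNA gene and the coding promoters share the summit and cannot be told apart.

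The other 17 of the 25 strongest loci lay between 185 and 244, and their pooled signal values are given here in brackets. Those with the A and B box pair were Y75B12B.12 (244), Y43F8C.22 (241), F30H5.4 (233), W03C9.9 (232), F55A11.10 (221), C04G6.12 (208), T03F7.8 (203), F32E10.10 (201), Y38F2AR.14 (197) and T19B4.8 (196). C04G6.12 and T03F7.8 lie in introns of mpk-2, a MAP kinase gene, and of cutl-18, a cuticlin-like gene, on the opposite strand. Those with the 18-base element were C08D8.3 (203), F47G4.9 (200), F01D5.12 (192) and C16D9.11 (185), the last in an intron of the receptor tyrosine kinase gene rol-3. Y53F4B.48 (233), F07A11.15 (220) and C10C6.8 (191) had neither pattern. The summits of Y53F4B.48 and F07A11.15 lay in the promoter windows of gst-27, a glutathione S-transferase gene, and of din-1. Those of Y75B12B.12, F55A11.10 and F47G4.9 lay in the promoter windows of Y75B12B.11, of F55A11.11 and F55A11.6, and of hmg-6, so that 9 of the 25 strongest loci had the summit in a coding promoter window. Replicate 1 values of these 17 ran from 95.8 to 135, and replicate 2 values from 83.9 to 134.

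Just below the threshold, by pooled signal value, stood Y74C9A.6 (89.6), C05H8.3 (88.9), C26C6.13 (84.7), K02C4.7 (84.1) and M163.14 (83.2). C05H8.3 and K02C4.7 lie in introns of the calmodulin-kinase kinase gene ckk-1 and of ltd-1, and with Y74C9A.6 they carry the 18-base element. The weakest locus inside the threshold had 94.0, and the strongest outside it 89.6.

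Loci were then grouped by the letters upstream of the gene, from 250 bases before to 50 after its start. The A and B box pair on the gene strand, with box starts 20 to 70 bases apart, was found at 27 snoRNA genes, and 23 of them had a thresholded summit (85.2%, 66.3 to 95.8%). The 18-base element was found at 32 genes, of which 18 had one (56.3%, 37.7 to 73.6%). Of the 287 with neither, 31 had one (10.8%, 7.46 to 15.0%). Median signal values of the loci with a thresholded summit were 196, 183 and 154 for the A and B box pair, the 18-base element and neither. Since both patterns were read off loci with peaks, these shares describe the loci and were not tested. A match is a run of letters, not a bound site. Of the 23 loci with the A and B box pair and a summit, C51F7.3 and C51F7.4 share a peak, although the interval treats loci as independent.

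The 18-base element was at 32 of 346 snoRNA genes (9.25%), against 30 of 129 snRNA genes (23.3%), 0.0551% of protein-coding genes and 0.258% of all nuclear genes (121 of 46884). The A and B box pair was at 27 snoRNA genes (7.80%), against 92 of 46884 windows of all nuclear genes (0.196%) and 0.100% of protein-coding ones. Outside snoRNA genes, 7 of 65 genes with the A and B box pair (10.8%) and 8 of 89 with the 18-base element (8.99%) had a thresholded summit within 200 bp of the start. Of the 30 snRNA genes with the element, 6 had one. The window ends 50 bases into the gene, so B boxes further inside a tRNA gene fall outside it. No tRNA gene lay in any of the 346 snoRNA windows. Of the 32 members with the 18-base element, 11 had fewer than 90% unique 36-base words, and 4 of these 11 had a thresholded summit.

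**Figure D3:**
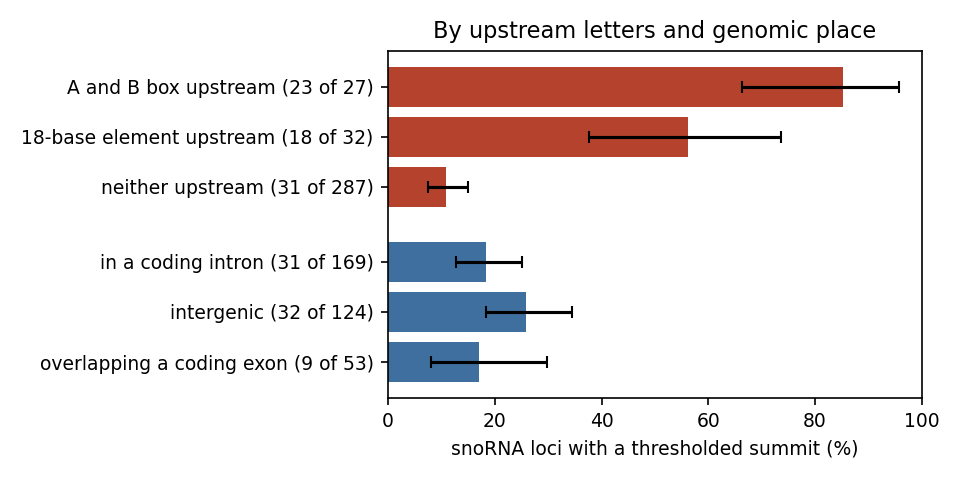
Percentage of snoRNA loci with a thresholded summit, grouped by upstream letters and by place relative to protein-coding genes; bars are shares and whiskers 95% exact binomial intervals. The A and B box group stands at 85.2%, the 18-base element group at 56.3% and the rest at 10.8%, while the 3 place groups lie between 17.0% and 25.8%.

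The 4 members with the A and B box pair but no thresholded summit were Y6B3B.15, R166.7, H04D03.5 and Y59E1B.14. Of these, H04D03.5 had a pooled entry of 54.3 and the other 3 had none. At Y6B3B.15, only 25.1% of the 36-base words in the window occur once in the genome. Among members with at least 90% such words, 23 of 26 with the pair had a thresholded summit. A looser search allowed up to 2 fixed letters to differ, with the pattern starting 110 to 20 bases before the gene. It found either pattern at 60 of the 72 loci with a thresholded summit (83.3%), at 61 of the 274 others (22.3%) and in 5.77% of all nuclear genes. Of the 225 members without it, 12 (5.33%) had a thresholded summit. Since this search relaxes patterns read off loci with peaks, its shares describe the loci and were not tested.

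Fixed letters of known factors were searched on both strands of the same windows. The strict B box GTTCGANNC, which overlaps the looser B box of the pair, was present at 27 snoRNA genes, and 19 of these (70.4%) had a thresholded summit, against 53 of the 319 without it (16.6%). It occurred in 2.51% of the windows of all nuclear genes. The T-box core GGTGTG was at 9 of the 72 loci with a thresholded summit (12.5%), at 30 of the 274 others (10.9%) and in 6.72% of all windows. Among members, 9 of 39 with it (23.1%) and 63 of 307 without it (20.5%) had a thresholded summit. TATAAA was at 20 of the 72 (27.8%), at 66 of the 274 (24.1%) and in 37.4% of all windows. In C51F7.3 the letters GGTGTG overlap the last bases of the A box. The shares of GGTGTG and TATAAA were thus close between loci with and without a summit, and no match says only that these letters are missing from the window.

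The share also varied with letters of the gene body and its end. CTGA, the D box letters, in the last 20 bases marked 81 genes, 36 of which had a thresholded summit (44.4%), against 36 of 265 without it (13.6%). TGATGA with CTGA, the C and D boxes at both ends, marked 14 genes, of which 7 had a thresholded summit. All 7 also carried an upstream pattern, with 4 of 4 genes with the A and B box pair and 3 of 4 with the 18-base element, against 0 of 6 with neither. ACA at 3 bases from the end, as in H/ACA snoRNAs, marked 58, of which 15 had one (25.9%). A run of TTTT within 30 bases after the gene, the letters at which RNA polymerase III stops, marked 183, of which 55 had one (30.1%), against 17 of 163 without it (10.4%). Among genes with neither upstream pattern, the shares lay closer together: 6 of 47 with CTGA (12.8%) against 25 of 240 without it (10.4%), and 20 of 136 with TTTT (14.7%) against 11 of 151 without it (7.28%). Among genes with the 18-base element, 16 of 20 with CTGA had a summit, against 2 of 12 without it, and among those with the A and B box pair, 14 of 14 against 9 of 13. The strict C and D box search leaves out genes whose boxes deviate or whose annotated ends are off, so it is no classification of the snoRNAs.

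Summits lay close to the start of the gene. Of the 75 distinct thresholded summits, each assigned to the nearest member, 53 (70.7%) lay in the 100 bases before the start, 12 in the first 100 bases from it and 9 in the next 100. None lay further than 100 bases upstream, although the windows reached 200 bp. Their median position was -19, with quartiles of -45 and 12.5. The 120 weaker summits in the windows were more spread, with 33 (27.5%) in the 100 bases before the start and a median of 83.5.

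By upstream letters, the strongest summit per locus had a median position of -23 at the A and B box loci, -10.5 at the 18-base element loci and -33 at the others. At 19 of the 23 A and B box loci it lay between the first base of the A box and the last base of the B box, with a median of 43 bases after the A box began. At the 18 loci with the 18-base element it lay a median of 57 bases after the element began, with a range of 6 to 205. The A box itself began at a median of -58 and the B box at -14. At C51F7.4 the boxes lie inside the gene and the summit is the one shared with C51F7.3.

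**Figure D4:**
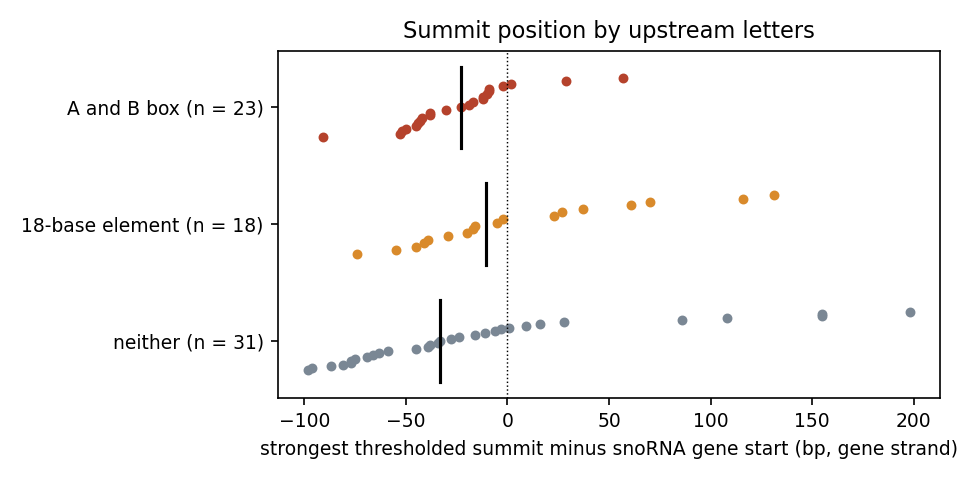
Position of the strongest thresholded summit relative to the snoRNA gene start (bp on the gene strand, 0 at the dotted line) for the 72 loci, by upstream letters; each point is a locus and black bars are medians. Medians lie at -23 for the A and B box pair, -10.5 for the 18-base element and -33 for neither, and most points lie just left of the start.

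The design asked whether loci inside protein-coding introns differ from intergenic ones. Of 169 intronic snoRNA genes, 31 had a thresholded summit (18.3%, 12.8 to 25%), against 32 of 124 intergenic ones (25.8%, 18.4 to 34.4%). The difference of -7.46 percentage points was not significant in a two-sided Fisher's exact test (p = 0.150, odds ratio 0.646). The test treats loci as independent, although some windows overlap and can share a summit. Its p-value covers the number of loci only, not biological replication. With overlapping windows merged, the difference was -6.28 points (p = 0.246, same Fisher's exact test). The difference was 1.29 points without the extension, and -0.259 points without loci whose summit lay in a coding promoter. The latter step removes only loci with a summit, 15 of them intergenic and 6 intronic. It therefore narrows the difference by construction and cannot check it. A further 9 of 53 genes that overlap a coding exon had one (17.0%, 8.07 to 29.8%). Median signal values were 170 for the intronic, 165 for the intergenic and 138 for the exon-overlapping loci with a summit. Coding promoters, taken from 1000 bp before to 200 bp after a transcript start, held the summit at 6 of the 31 intronic loci, 15 of the 32 intergenic ones and 5 of the 9 others. Whether such summits belong to the snoRNA or the coding gene was not tested.

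Within each place group the shares differed by upstream letters, again as a description. Of the intronic genes, 11 of 14 with the A and B box pair, 10 of 16 with the 18-base element and 10 of 139 with neither (7.19%) had a thresholded summit. Of the intergenic genes, 9 of 10, 8 of 16 and 15 of 98 (15.3%) had one. All 3 exon-overlapping genes with the A and B box pair had one. Intronic genes on the strand opposite to the host had a summit in 8 of 27 cases (29.6%, 13.8 to 50.2%), and those on the host's strand in 23 of 142 (16.2%). The order turned where a pattern was present. On the opposite strand, 3 of 5 with the A and B box pair, 2 of 6 with the 18-base element and 3 of 16 with neither had a summit. On the host's strand, 8 of 9, 8 of 10 and 7 of 123 had one.

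The last comparison set the intronic snoRNA windows against the promoter of the same host gene. The 169 intronic genes lie in 149 hosts. A thresholded summit was present in a snoRNA window of 31 hosts and in the promoter window of 34, against 5.36% of the promoters of all protein-coding genes. In 26 hosts only the snoRNA window had one and in 29 only the promoter. Both had one in 5 hosts, and in all 5 it was the same summit, since the windows overlap: C33A12.3, cfim-2, F55A11.6, pcyt-2.1 and cogc-3. The difference of -2.01 percentage points was not significant in a two-sided exact binomial (McNemar) test over the hosts with a summit in only 1 window (p = 0.788). This p-value covers the number of hosts only, not biological replication. The 2 windows differ in length. The promoter ran from 1000 bp before to 200 bp after each transcript start, and the snoRNA window 200 bp past both ends of a short gene. Like counts therefore do not mean like density of summits. The direction turned with 500 bp promoters (1.34 points), over the 98 hosts whose windows do not overlap (8.16 points) and with the 815 strongest entries (4.03 points), none of them significant in the same exact test.

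The grouping of hosts by which window had a thresholded summit places the other window below the threshold by construction, so the values by group are a description. In the 26 hosts with a snoRNA summit only, the snoRNA window had a median of 175 (102 to 558), and the promoter had an entry in 17 with a median of 29.8 (16.8 to 85.1) and none in 9. The snoRNA gene lay a median of 1609.5 bp from the nearest host start (243 to 16108 bp). ZK994.7 had 558, against 19.1 at the pxn-1 promoter, whose nearest start lay 5723 bp away. C51F7.3 had 466, against 36.6 at the frm-7 promoter. C10C6.8 had 191, against 58.6 at the promoter of the cation-transporting ATPase gene catp-8, and C16D9.11 had 185, against 29.8 at that of rol-3. The hosts mpk-2, cutl-18, C08D8.1 and F01D5.10 had no promoter entry.

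Where only the promoter had a thresholded summit, 20 of the 29 hosts had no entry at all in their snoRNA windows, and the other 9 had a median of 25.4 (17.5 to 59.7), against a promoter median of 156 (92.4 to 1008). Ribosomal protein genes are classic snoRNA hosts. Of the 13 hosts with an rpl or rps symbol, which hold 19 intronic snoRNA genes, none had a thresholded summit at a snoRNA window, against 8 at the promoter. Over all 149 hosts the counts were 31 and 34. Of all intronic snoRNA genes with neither upstream pattern, only 10 of 139 (7.19%) had a thresholded summit. Whether the ribosomal protein hosts differ from other hosts was not tested, and 19 genes are few for such a share. Ribosomal protein hosts under other symbols were not counted. The promoter signal values were 1008 at rpl-15, 368 at rps-12, 363 at rpl-7A, 161 at rps-23, 135 at rps-4, 127 at rpl-24.1, 121 at rpl-6 and 94.6 at rpl-7. The snoRNA window had 27.8, against 907 at the promoter, in the AAA ATPase gene cdc-48.1, and 59.7 against 404 in hsp-1, which encodes an Hsp70 chaperone. These hosts were named after their values were seen.

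**Figure D5:**
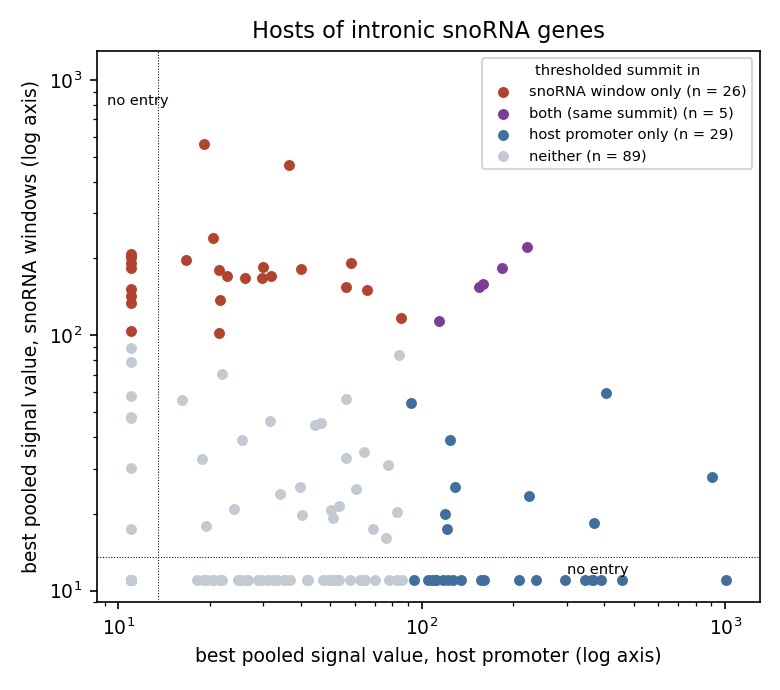
Best pooled signal value in the snoRNA windows (vertical, log axis) against the host promoter (horizontal, log axis) for 149 host genes, coloured by which window had a thresholded summit; points beyond a dotted line have no entry in that window. The threshold separates the 26 hosts with a snoRNA summit only from the 29 with a promoter summit only, and the 5 with both lie on the diagonal because they share the summit.

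Promoters of the proteins that assemble with snoRNAs were listed as well. Of 11 genes, 4 had a thresholded promoter summit, beside the 5.36% of all protein-coding promoters. The assembly ATPase gene ruvb-2 had 182 pooled, 107 in replicate 1 and 73.6 in replicate 2, and its partner ruvb-1 had 138, 80.6 and 56.2 in the same order. The fibrillarin gene fib-1 had 138, 74.2 and 62.6, and nola-3, which encodes a core H/ACA protein, had 102, 50.7 and 52.0. The C/D core proteins nol-56 and nol-58 had 82.8 and 81.2, and the NHP2 homolog Y48A6B.3 had 87.3, all below the threshold of 90.97. The other C/D protein snu-13 had 40.7, the dyskerin gene dkc-1 had 42.7 and dao-5 had 40.3, while garr-1, the GAR1 homolog, had no entry. The 4 promoter values above the threshold, 102 to 182, lay within the range of the 72 snoRNA loci with a thresholded summit (94.0 to 558, median 168).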

How the data were processed

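TBX-2-GFP ChIP-seq of whole L3 larvae was deposited as narrowPeak lists for 2 biological replicates, for their pool and for a thresholded subset, per the deposited listing of files. Signal values in these lists are the authors' own, as are the deposited −log10 q-values. The sources used here give no read totals, aligner, peak caller or settings, and the possible control named in the labels was not used here. Lists on ce11, which is WBcel235, were used, and those on ce10 were not.

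Genes came from Ensembl release 115. The window of each snoRNA gene ran 200 bp past both ends, and a locus was counted when a summit fell inside it. Intronic genes lie wholly in a protein-coding gene and overlap none of its exons. Intergenic ones overlap no protein-coding gene. Promoters ran from 1000 bp before to 200 bp after any transcript start. RefSeq gave the same span for all 346 members. Shares carry 95% Clopper-Pearson intervals, and 2 exact tests (Fisher, binomial) were made with SciPy 1.17.1. Only the Fisher test was checked on simulated data.

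Named loci were the 25 highest with a thresholded summit, the 5 highest below it, their hosts and all listed snoRNP protein genes. Other hosts and both upstream patterns were chosen after the values were seen. The members and lists were chosen with earlier results of these data known. Alternatives changed the extension, the promoter length, the list and the members.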

Additional observations from a re-analysis of the deposited data

How the results depend on the processing

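The count of 72 loci lay between 49, with the 815 strongest thresholded entries, and 84, with a 500 bp extension, except that it was 16 without any extension, because most summits lie before the gene. It was 46 without the loci whose summit lay in a coding promoter window, an alternative chosen after seeing the data. Single replicates, taking as many entries from the top of each list, gave 69 and 70. The intronic minus intergenic difference became 1.29 percentage points without extension (p = 0.783, two-sided Fisher's exact test), and lay between -10.9 and -0.259 otherwise, with no p under 0.05. The lowest p in that test was 0.0505, on autosomes alone. The value of -0.259 came from leaving out loci whose summit lay in a coding promoter window. That step removes only loci with a summit, so it cannot check the difference. Between single replicates the difference was -6.87 and -5.26.

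The snoRNA minus promoter difference over hosts turned to 1.34 points with 500 bp promoters, to 8.16 with hosts whose windows do not overlap and to 4.03 with the 815 strongest entries, and had p above 0.05 in the two-sided exact binomial test under each. Between single replicates it was -2.68 and -1.34. The cause was not tested. The median best signal was 55.8 where any base of the entry counted, and 33.9 and 40.3 in the lists of single replicates, whose scores are lower. The share of A and B box loci with a thresholded summit stayed between 66.7% and 88.5%, except 11.1% without extension, where that of the 18-base element was 21.9% and that of GTTCGANNC 3.704%. GTTCGANNC was at 40.7% with the 815 strongest entries. No paired analysis was possible because the series has 1 group. Only 2 replicates and unknown read depth limit all values.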
